A study of Drosophila melanogaster with 2 samples.

Results

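The invader elements are a numbered family of LTR retrotransposons of Drosophila melanogaster, and small RNA reads assigned to them were compared between mutant and control ovaries. A feature of the piRNA tables was a member when its name was invader followed by a number. This gave 6 members, invader1 to invader6, of 1364 features listed in either library, and 0 further names held the word invader. The family was selected on its read counts in these same libraries, that is on how far its members differed in their ratio between the genotypes, so those ratios are given as a description with no test.

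The study sequenced RNAs of 18 to 30 nt from hand-dissected ovaries of females aged 3 to 5 days. One library came from peloPB60/1 females, which carry the pelo alleles PB60 and 1. The other came from pelo1/+ females, which carry the same allele 1 over a normal copy, so the controls are heterozygotes rather than wild type. Both groups share allele 1, and their other chromosome carries either PB60 or the normal allele; the sources used here name neither the strain background of that chromosome nor the number of females pooled. The pelo protein (Pelota) frees stalled ribosomes. Each genotype had 1 library, so differences cannot be checked against replicates, no test is possible, and every interval below covers counting error only.

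piRNAs are small RNAs of the gonads that guide Piwi proteins to transposon transcripts by base pairing. An LTR retrotransposon carries a long terminal repeat at each end, is copied through an RNA intermediate, and often survives in the genome as a lone repeat after its internal part is lost. piRNAs against such elements are made from transcripts of piRNA clusters, which hold old transposon fragments, and in germ cells also from the transcripts of the elements themselves. In the ovary, germ cells and the surrounding follicle cells each run a piRNA pathway.

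Depth was similar, with 4872519 piRNA-table reads on 1097 features in peloPB60/1 and 5229331 on 1127 features in pelo1/+. The ovary label was checked against miRNAs of the same libraries. miR-989, miR-318 and miR-994, which are abundant in follicle cells, together held 45.9% of miRNA reads in peloPB60/1 and 26.9% in pelo1/+. They did not move together: miR-989 held 44.4% in peloPB60/1 and 17.4% in pelo1/+, miR-994 held 0.660% in peloPB60/1 and 8.55% in pelo1/+, and miR-318 held 0.891% in peloPB60/1 and 0.925% in pelo1/+. miR-184, a female germline miRNA, held 3.72% in peloPB60/1 and 3.28% in pelo1/+. The neuronal miR-124 had 36 reads in peloPB60/1 and 11 in pelo1/+, and miR-1000 had 22 in peloPB60/1 and 21 in pelo1/+. Of the muscle miRNAs, miR-1 held 0.690% in peloPB60/1 and 0.222% in pelo1/+, whereas miR-133 had 12 reads in each library. A muscle sheath wraps the ovary. None of the 8 markers was at 0. miR-989, miR-1 and the scarce miR-124 were thus higher in peloPB60/1 and miR-994 was lower. The levels of miR-318, miR-184, miR-133 and miR-1000 differed little. The part of these markers in the invader differences was not tested. In whole ovaries, fewer cells of a type and less RNA per cell cannot be told apart.

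Taken as a whole, invader elements held a smaller part of the reads of the piRNA table in the mutant library. The family had 45159 reads in peloPB60/1, which was 0.927% of the table (exact binomial 95% interval 0.918% to 0.935%). In pelo1/+ it had 74466 reads, or 1.42% (1.41% to 1.43%). The pooled log2 ratio of peloPB60/1 over pelo1/+ was -0.62 (95% interval -0.64 to -0.60), a 1.54-fold lower share. The members did not move together: invader3 and invader6 were lower by more than 2-fold, invader2 and invader5 by about 1.5-fold, invader4 was close to equal, and invader1 was higher. A feature was called when its ratio was 2-fold or more in either direction with an interval clear of 0 on the log2 scale. By this rule 2 of 6 members were called, both lower in peloPB60/1. Over all 438 features with at least 50 reads summed over both libraries, 18.7% were called, 15.8% as lower and 2.97% as higher. Among the 147 features with at least 1000 summed reads, a depth that 5 of the 6 members reach, 8.84% were called, 6.12% as lower and 2.72% as higher. Among the 153 tested names with no tag of another species and no genomic interval, 9.8% were called, 7.84% as lower and 1.96% as higher. A rule of 1.5-fold called 5 of 6 members, 4 lower and 1 higher, beside 36.8% of all tested features, 28.3% as lower and 8.45% as higher. Because these ratios were known when the family was chosen, nothing is read from its count against those shares.

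**Figure D1:**
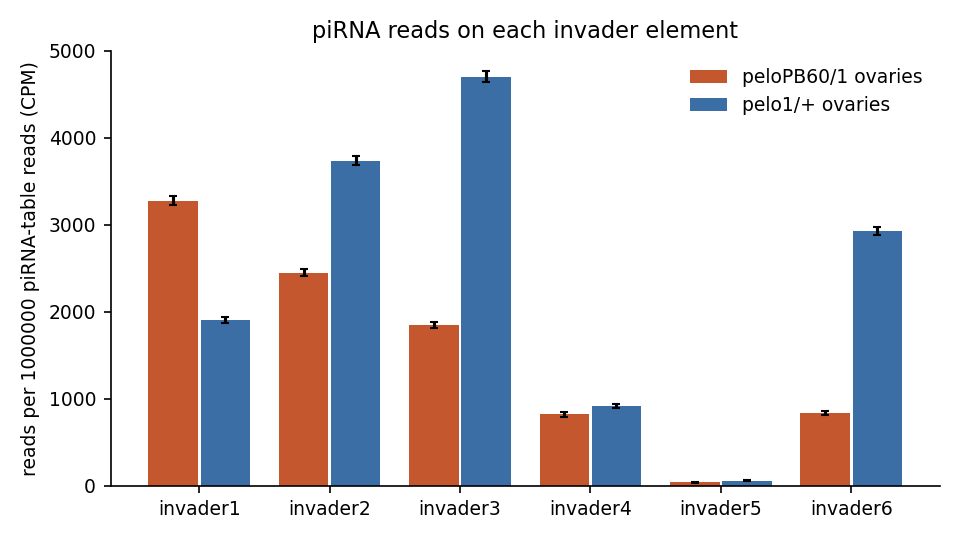
Reads on each invader element per 1000000 reads of the piRNA table (y axis) in peloPB60/1 ovaries (left bar of each pair) and pelo1/+ ovaries (right bar), 1 library each, with exact 95% counting intervals. The bars of invader1 are the only pair in which peloPB60/1 is higher; invader3 and invader6 show the widest gaps in the other direction.

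invader6 showed the widest difference. It had 4079 reads in peloPB60/1, against 15309 in pelo1/+. Per 1000000 reads of the table (CPM) this was 837.1 CPM in peloPB60/1 and 2928 CPM in pelo1/+. The log2 ratio was -1.81 (95% interval -1.86 to -1.76), a 3.50-fold lower level. It ranked 98 among the features of the peloPB60/1 table and 66 in pelo1/+. Of the 147 features with at least 1000 summed reads, 145 had a higher log2 ratio. The 1 with a lower ratio was listed as TART-CTART-ATART-BTirant, at -3.62.

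invader3 had the most reads of the members in pelo1/+ and the third most in peloPB60/1, without regard to length. It had 9002 reads in peloPB60/1 and 24595 in pelo1/+, or 1848 CPM in peloPB60/1 and 4703 CPM in pelo1/+. The log2 ratio was -1.35 (95% interval -1.38 to -1.31), a 2.55-fold lower level. Its rank in the whole table was 82 in peloPB60/1 and 48 in pelo1/+. Of the 147 features with at least 1000 summed reads, 2 had a lower ratio, and invader6 was one of them.

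invader2 held the second place within the family by reads in both libraries. Its 11934 reads in peloPB60/1 and 19525 reads in pelo1/+ gave 2449 CPM in peloPB60/1 and 3734 CPM in pelo1/+. The log2 ratio was -0.61 (95% interval -0.64 to -0.58), or 1.52-fold lower, which did not reach the 2-fold rule. Among all 438 tested features 27.9% had a lower ratio. It ranked 73 in the peloPB60/1 table and 53 in that of pelo1/+.

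invader5 was rare in both libraries, with 183 reads in peloPB60/1 and 298 in pelo1/+. This was 37.6 CPM in peloPB60/1 and 57.0 CPM in pelo1/+, with a rank of 184 in peloPB60/1 and 168 in pelo1/+. The log2 ratio of -0.60 was nearly that of invader2, but its 95% interval was wide, from -0.88 to -0.33. The uncalled member invader4 had 3993 reads in peloPB60/1 and 4781 in pelo1/+, which gave 819.5 CPM in peloPB60/1 and 914.3 CPM in pelo1/+. Its log2 ratio of -0.16 (95% interval -0.22 to -0.10) changed sign, to 0.02, when libraries were scaled by TMM factors. Its rank barely differed, 99 in peloPB60/1 and 95 in pelo1/+.

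invader1 went the other way. It had 15968 reads in peloPB60/1 and 9958 in pelo1/+, or 3277 CPM in peloPB60/1 and 1904 CPM in pelo1/+. The log2 ratio was 0.78 (95% interval 0.75 to 0.82), a 1.72-fold higher level that stayed under the 2-fold rule. It ranked 58 in the peloPB60/1 table and 83 in that of pelo1/+. Of the 147 features with at least 1000 summed reads, 11 had a higher log2 ratio. With invader1 left out, the pooled reads of the other 5 members were 0.599% of the table in peloPB60/1 and 1.23% in pelo1/+, a log2 ratio of -1.04.

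**Figure D2:**
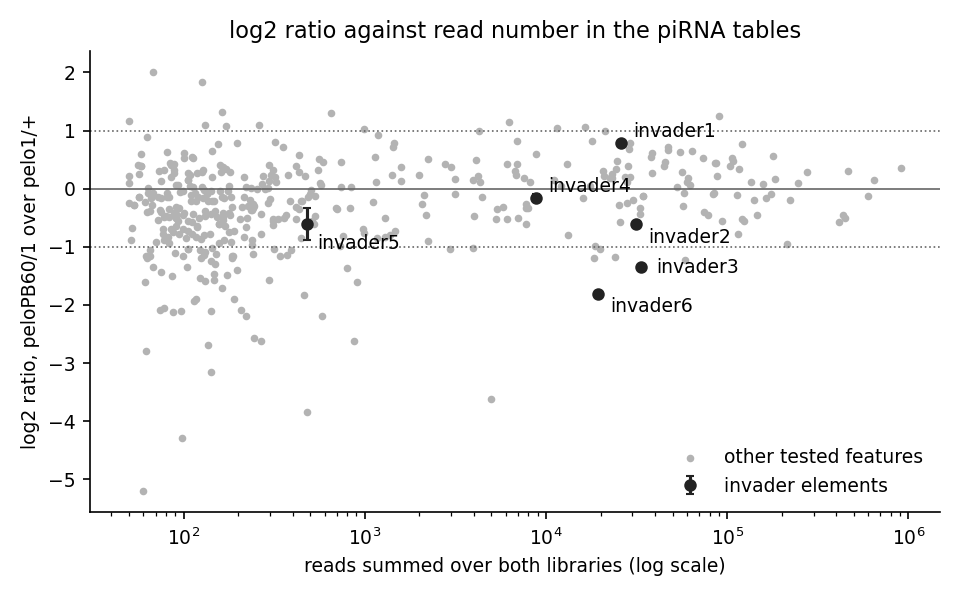
The log2 ratio of peloPB60/1 over pelo1/+ (y axis) against reads summed over both libraries (x axis, log scale) for 438 piRNA features; grey points are other features and black points are invader elements with exact 95% counting intervals. Dotted lines mark 2-fold. Among the deeply counted features, invader6 and invader3 lie near the lower edge and invader1 near the upper edge.

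The order of the members by reads, not corrected for their length, therefore changed between the libraries. By this order peloPB60/1 had invader1, invader2, invader3, invader6, invader4 and invader5 from most to least, whereas pelo1/+ had invader3, invader2, invader6, invader1, invader4 and invader5. In peloPB60/1 the neighbours invader6 and invader4 were close, and their CPM intervals (811.7 to 863.2 and 794.3 to 845.3) overlapped. In pelo1/+ no neighbours in that order had overlapping intervals. invader1 made up 35.4% of all invader reads in peloPB60/1 and 13.4% in pelo1/+. invader3 made up 19.9% in peloPB60/1 and 33.0% in pelo1/+, and invader6 9.03% in peloPB60/1 and 20.6% in pelo1/+. The share of invader2 was nearly the same, at 26.4% in peloPB60/1 and 26.2% in pelo1/+. invader4 held 8.84% in peloPB60/1 and 6.42% in pelo1/+, and invader5 held 0.405% in peloPB60/1 and nearly the same in pelo1/+.

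**Figure D3:**
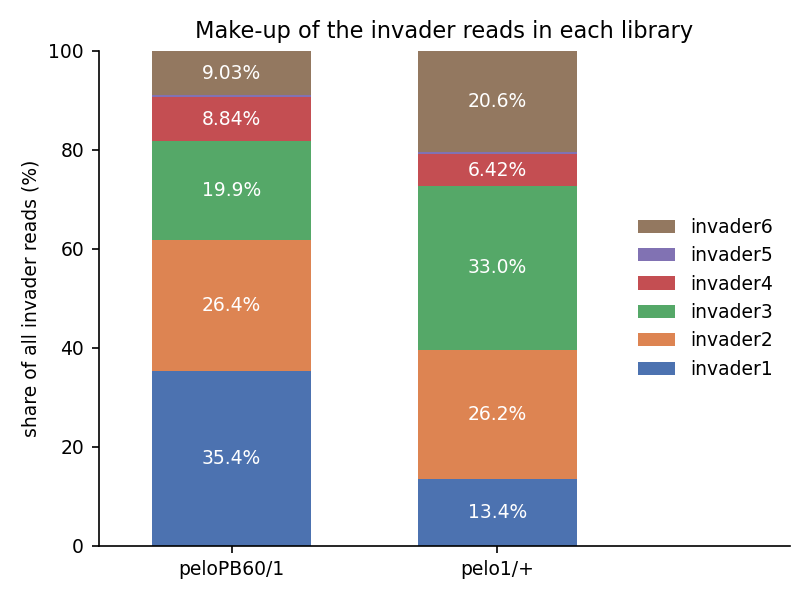
Share of all invader reads held by each member (y axis, percent) in the peloPB60/1 library (left) and the pelo1/+ library (right). The segment of invader1 covers 35.4% in peloPB60/1 and 13.4% in pelo1/+; the unlabelled thin segment is invader5.

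Comparing members with each other removes any factor common to a library, because that factor cancels. All 15 pairs of members were compared by the difference of their log2 ratios, with the exact conditional 95% interval of the odds ratio. The interval lay wholly above a 2-fold difference for 7 pairs, excluded no difference for 14, and included it for 1. Pairs of other features were not counted in this way, so these counts do not set the family apart. At these read numbers small gaps also have intervals clear of 0, as with invader4 and invader2 at 0.45 log2 units (95% interval 0.38 to 0.52). The widest gap was between invader1 and invader6. There were 3.91 invader1 reads per invader6 read in peloPB60/1, against 0.650 in pelo1/+, a 6.02-fold difference (2.59 log2 units, 95% interval 2.53 to 2.65). invader1 and invader3 differed 4.38-fold, with 1.77 invader1 reads per invader3 read in peloPB60/1 and 0.405 in pelo1/+.

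Members with log2 ratios below 0 also differed among themselves. invader4 and invader6 differed by 1.65 log2 units (95% interval 1.57 to 1.73), with 0.979 invader4 reads per invader6 read in peloPB60/1 and 0.312 in pelo1/+. invader2 and invader6 differed by 1.20 units, and invader4 and invader3 by 1.19. invader3 and invader6 differed by 0.46 log2 units (95% interval 0.40 to 0.52), so the drop was not the same for both. There were 2.21 invader3 reads per invader6 read in peloPB60/1 and 1.61 in pelo1/+. invader2 and invader3 exchanged places, at 1.33 invader2 reads per invader3 read in peloPB60/1 and 0.794 in pelo1/+. The pair with an interval that included no difference was invader5 and invader2, at 0.01 log2 units (95% interval -0.27 to 0.28); the few invader5 reads leave room for a difference of that size. Counting error is small beside most of these gaps, but how far such ratios vary between ovaries of 1 genotype is not measured here.

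The spread of the invader ratios was set beside other LTR elements. Their log2 ratios spanned 2.59 units with an SD of 0.91 and a median of -0.60, and 1 of 6 was above 0. Numbered gypsy elements, another numbered family, had 11 members that spanned 2.28 units with an SD of 0.69 and a median of 0.02. They ran from -1.03 for gypsy8 to 1.24 for gypsy2, and 1 was called higher and 2 lower. All 438 tested features had a median of -0.22 and an SD of 0.83, and the 147 with at least 1000 summed reads had a median of 0.11 and an SD of 0.64.

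BEL-type elements had a median of -0.44 and ran from -1.22 for rooA to 0.27 for diver. Elements of the copia superfamily had a median of 0.60, from -0.52 for frogger to 1.00 for Dm88. frogger was scarce, with 165 reads in peloPB60/1 and 254 in pelo1/+. Of 11 gypsy-type elements listed as silenced mainly in follicle cells, gypsy5 and gypsy10 are also numbered gypsy elements. These 11 had a median of 0.39, from -0.29 for gypsy to 0.82 for ZAM. Elements listed as silenced mainly in the germline had a median of 0.04, from -0.45 for mdg3 to 0.77 for rover. For 4 elements listed under both compartments the median was 0.31, with values from -0.56 to 0.56. The compartments come from general knowledge of the elements and were not checked in these data. The 5 lists held 7, 4, 11, 9 and 4 elements in the order given. The invader median was lower than that of each of these lists, and its SD of 0.91 compares with 0.53, 0.66, 0.38, 0.38 and 0.52 for the lists in the same order. The family was chosen with its ratios known, so this spread is not evidence that it stands apart.

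**Figure D4:**
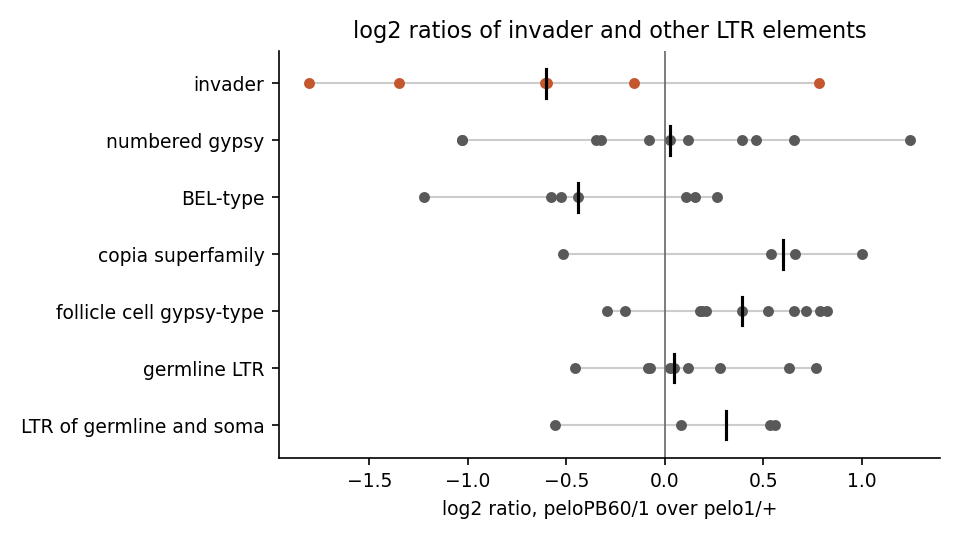
Log2 ratio of peloPB60/1 over pelo1/+ (x axis) for each element of 7 lists of LTR elements (rows); points are elements, the black tick is the median and the grey line the range. The invader row runs from -1.81 to 0.78, with its median at -0.60.

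Features of similar depth gave a further scale for these values. The features next above and below invader6 in summed reads were gypsy8 and Copia-1_DYa-I, at log2 ratios of -1.03 and -0.99. Those next to invader3 were transib2 at -0.12 and diver2 at -0.44. Those next to invader1 were Idefix at 0.21 and accord2 at -0.57, and those next to invader2 were gypsy12 at -0.33 and springer at -0.20. invader4 lay between R1_DSi at 0.60 and Tc1-2 at 0.11, and invader5 between Gypsy-6_DWil-I at -3.84 and BEL-13_DTa-I at -0.62.

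Among 117 other features with at least 1000 summed reads, no tag of another species and no genomic interval as a name, the one nearest in log2 ratio was found for each member. Likeness was the absolute difference of log2 ratios over the single contrast of these libraries. Stalker2 was nearest to invader1, at 0.79, and 1360 was nearest to invader4, at -0.16. roo at -0.58 was nearest to both invader2 and invader5, and rooA at -1.22 to both invader3 and invader6. rooA still lay 0.58 units above invader6.

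The genome copies of the members were counted in the Ensembl annotation of the BDGP6 assembly, which lists 5896 transposon insertions, 152 of them named as invader elements. This is a newer build than the BDGP5 of the submitters' processing notes and the reference strain rather than the sequenced stocks, so copies in these flies may differ. invader1 had 47 insertions, invader3 37, invader4 33, invader2 24, invader6 8 and invader5 3. Bases of other insertions nested inside a copy were not counted. The summed length was 62.4 kb for invader2, 61.9 kb for invader3, 30.2 kb for invader1, 25.5 kb for invader4, 9.44 kb for invader6 and 6.10 kb for invader5.

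The kinds of copies differed as well. invader1, the member with a higher share in peloPB60/1, was mostly short pieces, with a median of 399 bases and 5 of 47 copies over 1 kb. invader2 had longer copies, with a median of 3111 bases and 14 of 24 over 1 kb, as did the few copies of invader5, with a median of 2217 bases and 2 of 3 over 1 kb. Short pieces were not particular to invader1. The median was 347 bases for invader4, 506 for invader3 and 712.5 for invader6. Copies over 1 kb were 15 of 37 for invader3, 8 of 33 for invader4 and 2 of 8 for invader6. The full length of each element is not in the annotation, so these lengths do not measure how complete a copy is. Of the 8 invader6 copies 5 lay on chromosome arm 2R, 2 on 2L and 1 on 3L. The 37 copies of invader3 lay on 2R (13), X (9), and 2L, 3L and 3R (5 each).

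Only the right end of each arm was searched for copies, over 100 kb. There invader3 had 1 copy on 3L, of 5410 bases, and invader4 had 1 on 2R, of 736 bases. invader4 was also the member with copies gathered at the right end of arm 3R, where the other 5 members had 0. Of its 33 insertions, 20 lay on arm 3R, and 19 of these were within 100 kb of the outermost annotated feature at the right end of that arm, all 19 on the plus strand and within 5.95 kb of that feature. Most fell into repeated lengths, with 6 copies of 30 bases, 6 of 90 bases and 6 of 479 bases, and 1 of 48 bases. By start position the 48-base copy came first, and lengths of 479, 90 and 30 bases then followed in that order 6 times. The annotation lists each as an insertion, so all 19 enter the copy number and median length of invader4. Whether they are separate insertions or parts of a repeated unit was not tested.

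**Figure D5:**
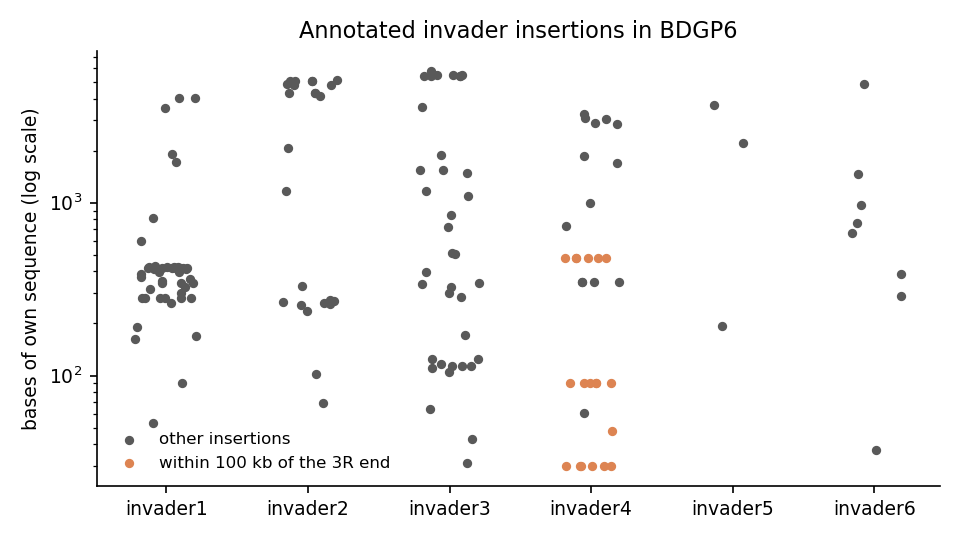
Bases of own sequence (y axis, log scale) of each annotated insertion of the 6 invader elements in BDGP6; each point is an insertion, spread sideways for sight only. Orange points are the 19 invader4 insertions within 100 kb of the right end of arm 3R, which sit at a few repeated lengths.

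The levels of the members were also set side by side per kb of annotated sequence, summed over all copies of a member. This gave another order than reads. It divides by the number and the size of the copies together, so it is not a correction for the length of an element. By this measure invader6 had 88.7 CPM in peloPB60/1 and 310.3 CPM in pelo1/+, where it was the highest of the members. invader1 had 108.4 CPM per kb in peloPB60/1, the highest there, and 63.0 in pelo1/+. invader3 had 29.8 CPM per kb in peloPB60/1 and 75.9 in pelo1/+, and invader2 had 39.2 in peloPB60/1 and 59.8 in pelo1/+. invader4 had 32.1 CPM per kb in peloPB60/1 and 35.8 in pelo1/+, and invader5 was lowest in both, at 6.15 in peloPB60/1 and 9.34 in pelo1/+. The sources used here do not give the length of the sequences that reads were matched to, so these levels rest on the annotation alone.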

How the data were processed

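The authors deposited raw read counts per feature, 1 miRNA and 1 piRNA table per library, whole numbers with no normalization. The submitters' processing notes name Bowtie 0.12.7 and the build BDGP5 but not what each was used for. The sources used here do not say how reads with several matches were counted or whether strand was kept, so reads of related invader sequences may be shared. Features missing from a table were set to 0 counts there.

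Counts were scaled to the total of the piRNA table. Log2 ratios had 0.5 counts added; intervals are exact (Clopper-Pearson, scipy 1.17.1) at 95%, and pairs used fisher.test of R 4.3.3. A call needs 50 summed counts and 2-fold. A count of 0 allows up to 3 counts, or 0.616 CPM in peloPB60/1 and 0.574 CPM in pelo1/+. edgeR 4.0.16 and DESeq2 1.42.0 were used just for scaling factors. Calls and intervals were tested on simulated counts with counting error only (Poisson), which says nothing about variation between ovaries. The simulated features were unchanged or changed well above 2-fold, so ratios close to the 2-fold rule were not tried.

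Named features are all members, those next to each in summed counts, the nearest in ratio, and the ends of each comparison list. Members and lists were chosen with earlier results of these data known. Of the listed names, BEL, ninja, copia2 and Tirant had no feature of exactly that name; TART-CTART-ATART-BTirant, whose label includes Tirant, was not counted for it.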

Additional observations from a re-analysis of the deposited data

How the results depend on the processing

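No paired analysis was possible because there is a single library per genotype, which also leaves no replicate to drop. Another scaling shifts all members by the same amount. The pooled log2 ratio of the family, -0.62, was -0.68 with the total of both tables, -0.86 with the miRNA total, -0.44 with TMM, -0.49 with median-of-ratios and -0.52 with upper quartiles. The median of the members, -0.60, was -0.67, -0.84, -0.43, -0.47 and -0.50 in the same order. The median of all tested features, -0.22, moved to -0.45 with the miRNA total and -0.04 with TMM. invader3 and invader6 were the members called in all 6 scalings; with TMM, invader1 was at 0.96 and invader4 at 0.02, the only member whose sign changed. The pooled value was -1.04 without invader1, -0.36 without invader3, -0.66 without invader4 and -0.42 without invader6. A 1.5-fold rule called 5 members (1 higher, 4 lower) and 161 features, and a 4-fold rule 0 members and 19 features. These counts hold for the main scaling, where invader2 and invader5 passed 1.5-fold narrowly, both at 1.52-fold. With TMM these members were at -0.43 and -0.42, which is under 1.5-fold, as they were with median-of-ratios and upper quartiles. With the miRNA total invader1 was under 1.5-fold, at 0.55. With at least 200 summed counts 32 of 243 features were called, against 82 of 438. Added after seeing the data, 13 were called with at least 1000 summed counts and 15 among names with no other species tag and no interval. The split of called features was 13 higher and 69 lower, 5 and 101 with the miRNA total, and 17 and 47 with TMM. Depth limits invader5, whose interval is the widest of the members.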

Other observations

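Telomeric retrotransposons, which maintain the chromosome ends of flies, were set beside invader4 after its insertions near the end of arm 3R were seen. HeT-A was at 8290 CPM in peloPB60/1 and 14244 CPM in pelo1/+ (log2 ratio -0.78), and TAHRE was at 14226 CPM in peloPB60/1 and 27611 CPM in pelo1/+ (-0.96). TART was at 25142 CPM in peloPB60/1 and 23399 CPM in pelo1/+ (0.10). A separate feature whose label joins TART and Tirant, TART-CTART-ATART-BTirant, had 351 reads in peloPB60/1 and 4646 in pelo1/+ (-3.62), and its reads cannot be assigned to either element. The log2 ratio of invader4, -0.16, lay between those of HeT-A and TART. So did those of invader2 (-0.61) and invader5 (-0.60), which had 0 insertions at that end, and the median of all tested features (-0.22). This placement is therefore not particular to invader4. The 19 insertions at that end held 3642 of the 25524 annotated invader4 bases, and how many invader4 reads came from them is not known.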
